A study of Mus musculus with 22 samples.

Results

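CD8+ T cells of Tcaim knock-in (KI) mice were compared between 48 h and 24 h of stimulation, the later phase of their activation in culture. The 6 libraries were the columns of the deposited count table that belong to KI cells at 24 h and at 48 h, out of 22 libraries in the series. They came from 3 mice of the line Tcaim KI Cd4Cre with the genotype written as hocre, and each mouse gave 1 library at each time, so that the libraries were paired by mouse and experiment number (experiments 1, 3 and 5). The KI mice of experiments 1 and 3 were male and that of experiment 5 was female, so sex and experiment cannot be told apart, and the labels give no age. Naive CD8+ cells had been enriched from lymph nodes and spleen by depleting other cells with magnetic beads, and were stimulated with plate-bound anti-CD3 at 2 µg/ml and soluble anti-CD28 at 1 µg/ml. The same contrast in wt mice (same line, genotype written as wtcre, 3 mice of the same experiments and sexes) is given where the KI cells differed from it. In this line the Cd4 promoter drives Cre, which acts in developing T cells of both the CD4 and CD8 lineages. The fit behind the p-values also held the libraries of the series labelled KO, from female mice of experiments 1 and 5, naive and at 48 h.

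A naive CD8+ T cell is small and does not divide. Signals through the T cell receptor and CD28 make it grow, switch to rapid use of glucose, enter the cell cycle and, over the following days, take up the functions of a cytotoxic T cell, among them granules with granzymes and perforin and the release of interferon gamma. Cell growth and DNA replication genes come first in this course, and mitotic and effector genes follow. Tcaim encodes a mitochondrial protein named for its ability to restrain T cell activation.

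The label CD8+ fitted the marker genes. In counts scaled by gene length (FPKM, the authors' unit), the mean level at 24 h and 48 h was 300.5 and 263 for Cd8a, the CD8 alpha chain, and 594 and 469 for Cd8b1, the beta chain, against 5.61 and 8.51 for Cd4. Values below are CPM, counts brought to a common library total with TMM scaling (a correction for differences in RNA composition), listed in the order of experiments 1, 3 and 5. Total counts of the 6 libraries lay between 69000100 and 93489115. Principal components were computed on these libraries alone, and the first (37.4% of the variance) placed the 24 h libraries between -54 and -23.5 and the 48 h libraries between 23.7 and 57.7. On the second component (26.5%) both libraries of the experiment 5 mouse stood apart, at 55 and 46.7 against -33.6 to -20.4 for the other mice.

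Some RNA of other cells was present. The summed level of 10 B cell markers, all of them detected, was 131 to 339 CPM at 24 h and 134 to 290 CPM at 48 h, the highest value at each time being that of the experiment 5 mouse. The 3 CD4 helper markers summed to 23.5 to 40.5 CPM at 24 h and 29.9 to 66.3 CPM at 48 h and were higher at 48 h in every mouse. The 4 regulatory T markers summed to 46.7 to 55.9 CPM and then 52.9 to 77.4 CPM, with Lrrc32 called higher and Foxp3, the defining factor, not called at 18.8 ± 2.51 and 15.3 ± 1.83 CPM (SD, n = 3). The 9 NK cell markers summed to 4.67 to 10.7 CPM and then 2.90 to 4.86 CPM, 2 of them (Klra4 and Klra8) being called lower. Macrophage and monocyte markers (12) summed to 43.2 to 93 CPM and then 52 to 88.2 CPM, with 1 called in each direction (Mpeg1 higher, C1qb lower). Dendritic cell markers (7) ran from 34.5 to 51.6 and then 42.2 to 59.2 CPM (Zbtb46 higher), gamma delta T markers (6) from 14.9 to 23.6 and then 19.5 to 25.6 CPM (Tcrg-C2 higher), and stromal and endothelial markers (8, Pdgfra at 0) from 181 to 215 and then 157 to 205 CPM. Neutrophil, mast cell and erythroid markers each stayed under 6 CPM in all 6 libraries. Over tested members, the mean log2 CPM in the 6 libraries was 3.16 to 4.56 for B cell markers. It was -1.51 to -0.80 for stromal and endothelial, -1.05 to 0.38 for macrophage and monocyte and -0.53 to 0.40 for dendritic cell markers. For gamma delta T markers it was -1.4 to -0.07. The sums of these low lists therefore rested on a part of their members. The part of other cells in the results below was not tested. In bulk RNA, fewer cells of a type and less RNA per cell cannot be told apart.

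Tcaim itself was measured first. In KI cells it stood at 226, 237 and 179 CPM at 24 h and at 233, 229 and 260.0 CPM at 48 h. The levels overlapped between the times, and the log2 fold change was 0.17 (SE 0.197, edgeR adjusted p = 0.734), with a value of -0.02 without the experiment 5 mouse. Wt libraries of the same times held between 8.38 and 11.98 CPM, so all KI libraries were far above all wt libraries.

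Between 24 h and 48 h, 807 of 21183 tested genes (3.81%) were called in KI cells, 535 higher (2.53%) and 272 lower (1.28%). Called genes are those with an adjusted p under 0.05 in edgeR's quasi-likelihood test (Benjamini-Hochberg adjustment over all tested genes), with the mouse as a block. Among the called genes 345 rose at least 2-fold and 65 fell at least 2-fold, and 806 moved in the same direction in all 3 mice. In 792 called genes the levels of the 24 h and 48 h libraries did not overlap. Over all tested genes the 3 libraries of 48 h lay above the 3 of 24 h in 14.3% and below them in 15.1%. The median log2 fold change over all tested genes was -0.02. These calls rested on all 3 mice: with 1 KI mouse left out, 36 (without experiment 1), 249 (without experiment 3) and 22 (without experiment 5) genes were called. Without the mouse block there were 567 calls, of which 525 were also among the 807, and a fit of the 6 libraries alone called 2301.

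**Figure D1:**
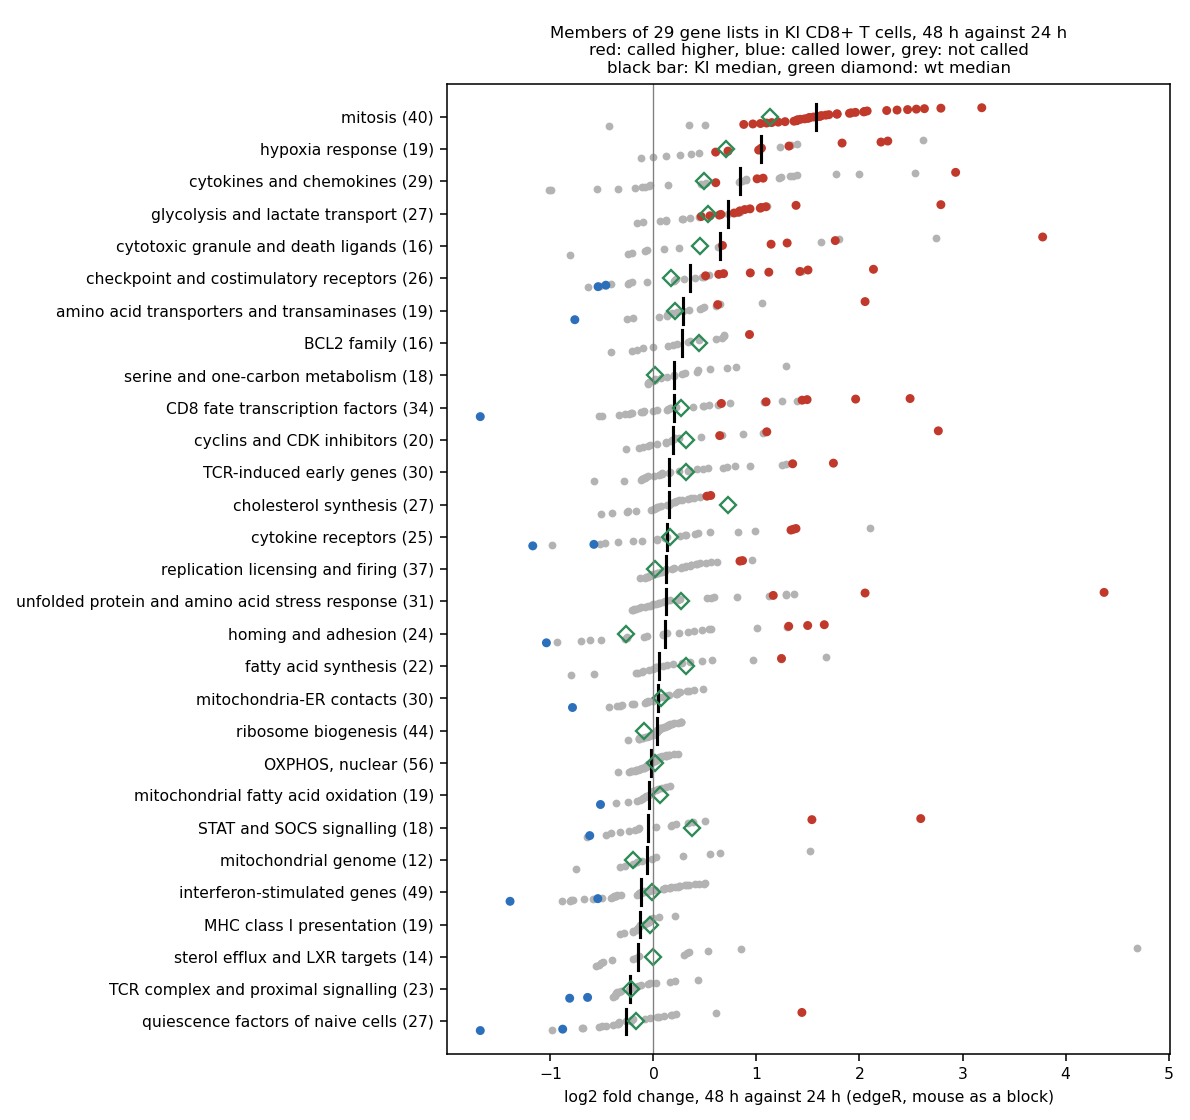
Log2 fold change of 48 h against 24 h in KI cells (x axis) for each tested member of 29 gene lists (rows, number of tested members in brackets). Red points were called higher, blue points lower and grey points were not called, the black bar is the KI median and the green diamond the wt median. By their KI medians mitosis (1.58), hypoxia response (1.04), cytokines and chemokines (0.84) and glycolysis (0.72) lay farthest to the right, and the cholesterol synthesis row shows a wt median of 0.72 beside a KI median of 0.15.

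Of the 29 lists, mitosis had the highest share of called members and the highest median. Of its 40 members 37 rose and none fell (1 was lower at an unadjusted edgeR p under 0.05, and DESeq2 called 38 higher and 0 lower), against 2.53% of all tested genes, and the median log2 fold change was 1.58. In the 3 mice the median change was 1.74, 1.05 and 2.05. Ccnb2 (ENSMUSG00000032218, chromosome 9, 70407692 to 70421547, GRCm38), which encodes cyclin B2 of the kinase complex that drives entry into mitosis, stood at 7.66, 15.7 and 7.15 CPM at 24 h and at 69.5, 67.0 and 63.6 CPM at 48 h. Its 48 h libraries were all far above the highest 24 h library, and its log2 fold change was 2.79 (SE 0.28, edgeR adjusted p = 0.000949). Ube2c, the ubiquitin-conjugating enzyme of the anaphase-promoting complex, rose from 8.18, 19.5 and 8.97 CPM to 97.7, 94.0 and 120.1 CPM (log2 3.19, SE 0.402, edgeR adjusted p = 0.00124). Cdc20, an activator of the same complex, rose from 16.8, 27.3 and 16.4 CPM to 97.0, 105 and 101 CPM (log2 2.36, SE 0.274, edgeR adjusted p = 0.00115). In each of these genes the mouse of experiment 3 had the highest 24 h level and the smallest rise.

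Members acting at other steps of division moved with them. Hmmr, a spindle-associated protein, rose by 2.63 on the log2 scale, Ccnb1 (cyclin B1) by 2.55 and Plk1, a kinase of spindle assembly, by 2.47 (edgeR adjusted p = 0.00124, 0.00313 and 0.00403). Top2a, which untangles chromosomes, rose from 368, 642 and 247 CPM to 1023, 1004 and 894 CPM (log2 1.28, SE 0.276, edgeR adjusted p = 0.0194). The 3 members not called, named here after their values were seen, were Bub3 (0.35), Cdc25b (0.50) and Pttg1, the securin that holds sister chromatids together, which stood at 22.6, 18.8 and 33.3 CPM at 24 h and at 18.6, 19.4 and 16.5 CPM at 48 h (log2 -0.43, edgeR adjusted p = 0.196). Pttg1 was the only member whose 24 h and 48 h libraries overlapped, and the only one with a value below 0. Among the genes with the smallest p, Psrc1 (spindle, log2 2.59) and Parpbp (1.73) also rose, as did Kifc5b (1.32), a close relative of the spindle motor gene Kifc1 with which it may share reads. The exons of Ube2c, Cdc20, Plk1 and Parpbp overlap those of another gene, so part of their counts is uncertain. With 1 KI mouse left out, 5, 31 and 3 mitosis members were called (without experiments 1, 3 and 5). All 3 libraries of 48 h lay above those of 24 h for 39 of 40 members, against 14.3% of all tested genes.

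Several mitotic promoters carry a short element known as the cell cycle homology region, whose core is TTTGAA and through which such genes are held down early in the cycle. Promoters of the 3 genes described first are shown from 100 bases before to 20 bases after the RefSeq start site (GRCm38.p6), 5′ to 3′ along the gene, with a match to TTTGAA on either strand in capitals (TTCAAA where it lies on the opposite strand).
Ube2c, chr2:164769829-164769948, plus strand: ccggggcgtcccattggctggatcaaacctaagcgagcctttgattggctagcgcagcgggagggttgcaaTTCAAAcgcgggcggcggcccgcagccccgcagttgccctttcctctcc
Ccnb2, chr9:70421535-70421654, minus strand: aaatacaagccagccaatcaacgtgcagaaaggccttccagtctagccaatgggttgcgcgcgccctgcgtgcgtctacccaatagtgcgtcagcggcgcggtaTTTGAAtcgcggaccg
Cdc20, chr4:118437324-118437443, minus strand: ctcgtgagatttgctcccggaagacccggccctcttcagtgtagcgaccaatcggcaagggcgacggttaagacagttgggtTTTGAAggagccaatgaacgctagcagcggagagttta
The matches begin at positions -29, 4 and -18 from the start site. Over windows from 250 bases before to 50 after the start, read on both strands, TTTGAA was present in 23 of the 33 mitosis members with a RefSeq promoter entry (69.7%), against 20.2% of 27025 genes. It was present in 7 of 30 replication genes (23.3%) and 5 of 25 glycolysis genes (20%). A match is a string of letters and not a measured binding site. Since mitotic promoters are known to carry this element, the share in the mitosis list is part of what such genes are known for.

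DNA replication belongs to the preceding phase of the cycle. Of 37 members of its licensing and firing list 2 rose (5.41%, against 2.53% of all tested genes) and none fell (11 were higher and 0 lower at an unadjusted edgeR p under 0.05, and DESeq2 called 2 higher), with a median of 0.12 against -0.02 over all genes. Dbf4, the regulatory subunit of the kinase that fires origins, rose from 48.3, 63.8 and 48.6 CPM to 94.7, 98.7 and 96.7 CPM (log2 0.86, SE 0.173, edgeR adjusted p = 0.0135), and the transcription factor E2f2 by 0.84 (edgeR adjusted p = 0.025). Mcm2, a subunit of the replicative helicase, stood at 277, 297 and 241 CPM at 24 h and at 258, 261 and 292 CPM at 48 h, with overlapping groups, and took a value on either side of 0 depending on the scaling. Cdc6, which loads that helicase, had 68.2 ± 15.1 and 83.5 ± 2.11 CPM (SD, n = 3) and was not called. The mean log2 CPM of the replication list went from 4.19 to 4.24 in naive KI cells to 6.49 to 6.92 at 24 h and 6.89 to 6.98 at 48 h. That of the mitosis list went from 1.98 to 2.12 in naive cells to 4.55 to 5.54 at 24 h and 6.55 to 6.67 at 48 h.

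Among 20 tested cyclins and inhibitors of cyclin-dependent kinases 3 rose (15%, against 2.53% of all tested genes) and none fell. Cdkn1a, which encodes the inhibitor p21, rose most, from 4.63, 4.72 and 6.97 CPM to 23.6, 39.9 and 50.5 CPM (log2 2.76, SE 0.45, edgeR adjusted p = 0.0045). Cdkn2c, another such inhibitor (p18), rose by 1.10 and Cdk6, a kinase of the G1 phase, by 0.64 (edgeR adjusted p = 0.0109 and 0.0499). The Cdk6 call was lost under RLE, upper-quartile and library-total scaling (edgeR adjusted p = 0.051, 0.0512 and 0.066). The cell cycle transcript Lockd, a noncoding RNA next to Cdkn1b, rose by 1.61 (SE 0.19, edgeR adjusted p = 0.00119).

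**Figure D2:**
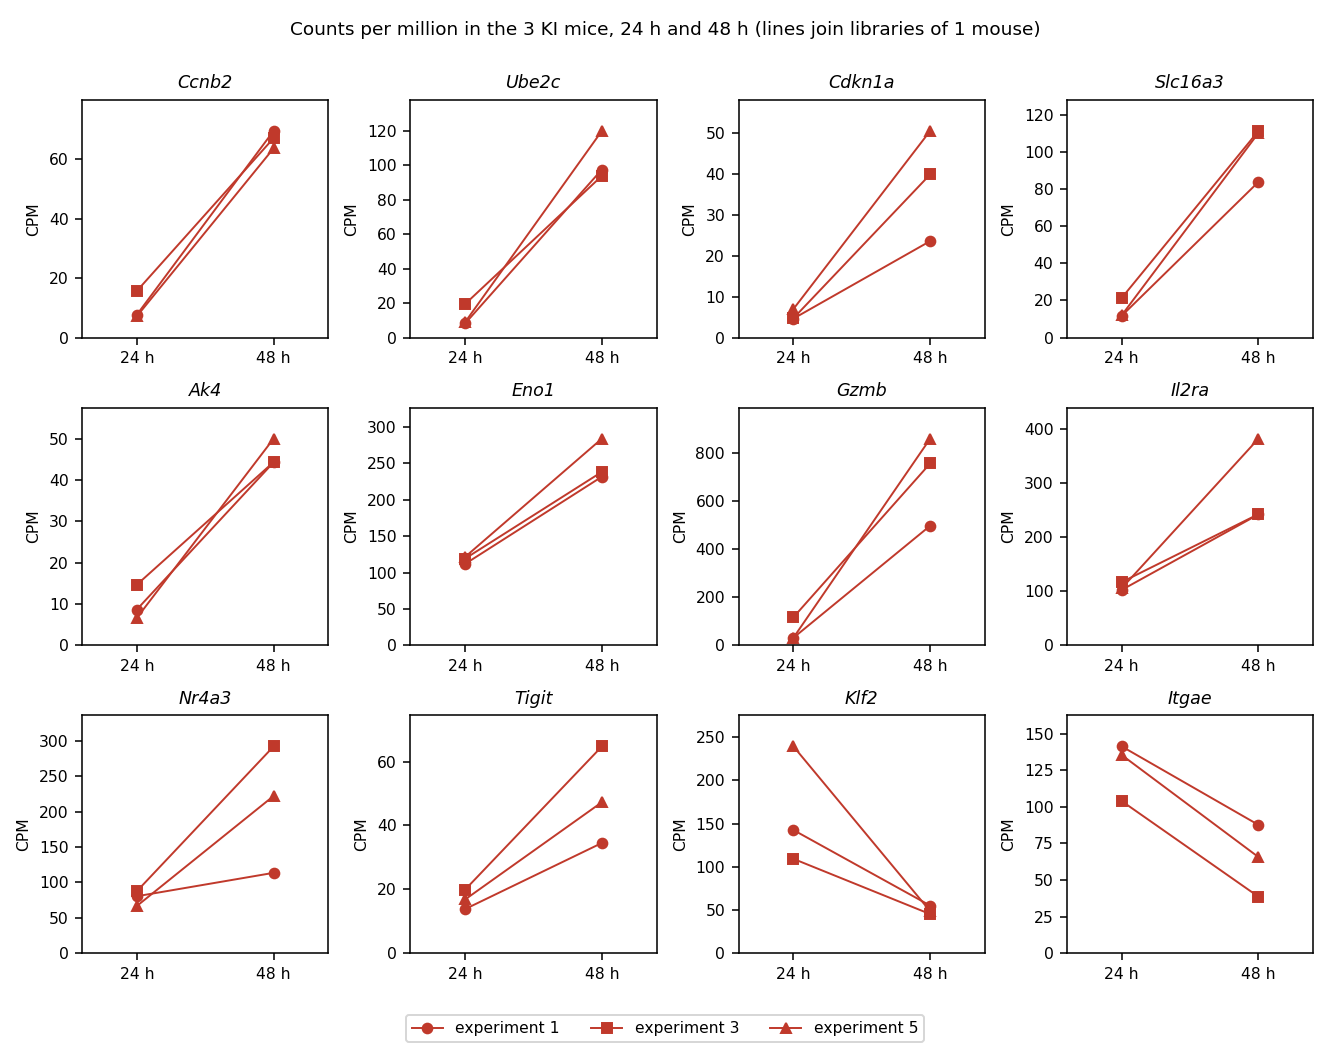
CPM (y axis, linear from 0) of 12 genes in the 24 h and 48 h libraries of KI cells (x axis), lines joining the 2 libraries of 1 mouse and symbols marking the experiment. In all 12 genes every line goes the same way, up for 10 genes and down for Klf2 and Itgae. The 12 were taken from the called genes, of which 806 of 807 moved in the same direction in all 3 mice. The mouse of experiment 3 has the highest 24 h level of Ccnb2, Ube2c, Slc16a3, Ak4, Gzmb, Il2ra, Nr4a3 and Tigit.

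Genes of sugar use rose as well. Of 27 genes of glycolysis and lactate transport 14 rose (51.9%, against 2.53% of all tested genes) and none fell. The median was 0.72 (0.66, 0.61 and 0.76 in the single mice). Slc16a3 (ENSMUSG00000025161, chromosome 11, 120948480 to 120960868), which encodes the lactate exporter MCT4, stood at 11.7, 21.3 and 12.01 CPM at 24 h and at 83.8, 111 and 110.1 CPM at 48 h. The groups were far apart (log2 fold change 2.79, SE 0.348, edgeR adjusted p = 0.00124). Slc2a1, the glucose transporter GLUT1, rose from 44.5, 54.7 and 47.2 CPM to 90.0, 88.5 and 121 CPM (log2 1.04, SE 0.145, edgeR adjusted p = 0.00198). The glycolytic enzyme genes Tpi1 and Eno1 rose by 1.38 and 1.09 (edgeR adjusted p = 0.00198 and 0.000949). Eno1 went from 112, 119 and 122 CPM to 232, 238 and 284 CPM, and its near-identical copy Eno1b, whose reads may be shared with it, rose by 1.16. Pfkfb3, which makes the activator of phosphofructokinase, rose by 1.05, and Ldha, lactate dehydrogenase A, from 958 ± 81.6 to 1495 ± 188 CPM (SD, n = 3; log2 0.64, edgeR adjusted p = 0.0303). Hk2, the inducible hexokinase, stood at 43.8, 53.6 and 45.0 CPM and then 74.0, 85.0 and 97.0 CPM without overlap but missed the threshold (log2 0.84, SE 0.262, edgeR adjusted p = 0.0965). With 1 KI mouse left out 2, 8 and 2 members were called (without experiments 1, 3 and 5).

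Targets of the hypoxia-inducible factors showed the next highest list median after mitosis, 1.04 (1.02, 0.79 and 1.36 in the single mice). Of 19 members 9 were higher (47.4%, against 2.53% of all tested genes) and none lower. Ak4, a mitochondrial adenylate kinase, rose from 8.66, 14.7 and 6.62 CPM to 44.3, 44.3 and 49.99 CPM (log2 2.27, SE 0.279, edgeR adjusted p = 0.0012). Bnip3, a mitophagy receptor, rose from 4.92, 7.87 and 5.05 CPM to 27.7, 28.3 and 25.3 CPM (log2 2.21, SE 0.382, edgeR adjusted p = 0.00632). Both genes showed no overlap between the times. Vegfa, the vascular growth factor, rose by 1.83, P4ha1, a collagen prolyl hydroxylase, by 1.32 and Ero1l, an oxidase of the endoplasmic reticulum, by 1.05. With 1 KI mouse left out 1, 7 and 1 members were called, and 14 in a fit of the 6 libraries alone. Slc2a1 and Pdk1, a kinase of pyruvate dehydrogenase, belong to this list and to glycolysis.

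The promoters of Slc16a3 and Slc2a1 are shown because they belong to the called genes of these lists that hold ACGTG, the core of the hypoxia response element. Capitals mark a match on either strand, over 100 bases before to 20 after the RefSeq start site (GRCm38.p6).
Slc16a3, chr11:120948967-120949086, plus strand: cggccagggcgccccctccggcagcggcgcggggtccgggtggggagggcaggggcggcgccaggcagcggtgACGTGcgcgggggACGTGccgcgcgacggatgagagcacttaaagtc
Slc2a1, chr4:119108645-119108764, plus strand: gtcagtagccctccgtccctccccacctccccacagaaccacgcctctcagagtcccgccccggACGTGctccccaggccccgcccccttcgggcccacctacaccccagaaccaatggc
The matches begin at positions -27 and -14 in Slc16a3 and at -36 in Slc2a1. In windows from 250 before to 50 after the start, on both strands, ACGTG occurred in 12 of 15 hypoxia genes with an entry (80.0%) and in 15 of 25 glycolysis genes (60.0%), against 21.8% of 27025 genes. In mitosis genes it occurred in 12 of 33 (36.4%). Since the hypoxia list holds textbook targets of a factor that reads this element, its share is part of what such genes are known for.

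Effector genes rose in part. Of 16 tested cytotoxic granule and death ligand genes 5 rose (31.2%, against 2.53% of all tested genes) and none fell (median 0.65). Another 4 granzyme genes (Gzmd, Gzme, Gzmg and Gzmn) had too few counts to be tested. Gzmb (ENSMUSG00000015437, chromosome 14, 56258838 to 56262260), the main granzyme of activated CD8+ T cells, stood at 31.4, 117 and 31.7 CPM at 24 h and at 499, 758 and 862 CPM at 48 h. It was the most increased member, at 3.78 on the log2 scale (SE 0.511, edgeR adjusted p = 0.00165), and had changes of 3.99, 2.70 and 4.76 in the single mice. Serpinb6b and Serpinb9, inhibitors of proteases that include granzymes, rose by 1.76 and 1.14, the granule membrane protein gene Nkg7 by 1.30 and the death ligand gene Tnfsf10 by 0.67. Prf1, which encodes perforin, stood at 28.4, 30.1 and 36.1 CPM and then 25.9, 45.2 and 43.7 CPM with overlapping groups (log2 0.25, edgeR adjusted p = 0.64). Beside these values, summed NK cell markers were at most 10.7 CPM at either time. Without the mouse of experiment 1, and without that of experiment 5, no member of the list was called by edgeR, and 3 were without experiment 3.

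Of 29 tested cytokine and chemokine genes 4 rose (13.8%, against 2.53% of all tested genes) and none fell. Csf2, the growth factor GM-CSF, rose from 0.08, 0.12 and 0.55 CPM to 1.18, 0.99 and 3.11 CPM (log2 2.93, SE 0.701, edgeR adjusted p = 0.032) and stayed low in absolute terms. Tnfsf8, the ligand of CD30, rose from 111, 128 and 94.4 CPM to 227, 206 and 267 CPM (log2 1.06, edgeR adjusted p = 0.00289). Tnfsf9 (the ligand of 4-1BB) rose by 1.01 and Mif by 0.60. Ifng, interferon gamma, stood at 2.80, 2.14 and 1.79 CPM at 24 h and at 5.95, 8.85 and 33.2 CPM at 48 h. The groups did not overlap, but the 48 h value of the experiment 5 mouse was well above that of the others, and the gene missed the threshold (log2 2.54, SE 0.741, edgeR adjusted p = 0.0755). Il2 (1.02, 0.85 and 1.37, then 2.35, 2.60 and 12.3 CPM) and Tnf (15.4, 13.3 and 17.5, then 24.1, 19.6 and 41.0 CPM) had their highest level in the same library and were not called.

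Some cytokine receptor and signalling genes rose and others fell. Of 25 cytokine receptor genes 3 rose (12%) and 2 fell (8%), against 2.53% and 1.28% of all tested genes, and the median was 0.13. Il2ra, the alpha chain that gives high affinity for IL-2, rose from 102, 117 and 105 CPM to 242, 242 and 382 CPM (log2 1.38, SE 0.297, edgeR adjusted p = 0.0189). Il10ra rose by 1.36, with 103 CPM at 48 h in the experiment 3 mouse against 35.7 and 34.3 CPM in the others. Il12rb2, a chain of the IL-12 receptor, rose by 1.34 with overlapping groups (19.9, 43.6 and 11.6, then 38.6, 98.1 and 48.3 CPM). Neither of these genes was called without the mouse block. Il6ra, the IL-6 receptor, fell from 81.4, 61.1 and 88.5 CPM to 47.2, 26.0 and 30.6 CPM (log2 -1.17, SE 0.211, edgeR adjusted p = 0.00785), and Il27ra fell by 0.58. Il7r, the receptor for the survival factor IL-7, had 198 ± 92.3 and 97.9 ± 34.5 CPM (SD, n = 3) and was not called (log2 -0.98, edgeR adjusted p = 0.246). Cish and Socs2, feedback inhibitors of cytokine signalling, rose by 1.54 and 2.59, and the kinase gene Pim2 fell by 0.62. These were the 3 called members of 18 in the STAT and SOCS list (11.1% higher and 5.56% lower). The median of that list was -0.055, with 9 members above and 9 below 0. The Socs2 call was lost under library-total scaling (edgeR adjusted p = 0.0539). The receptor calls moved with the fit, from 3 without the mouse block to 14 in a fit of the 6 libraries alone, and with 1 mouse left out there were 1, 0 and 0 (without experiments 1, 3 and 5).

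Among 34 transcription factors of CD8 T cell fate 6 rose (17.6%) and 1 fell (2.94%), against 2.53% and 1.28% of all tested genes. Bhlhe40, a factor of cytokine production and mitochondrial function, rose from 34.4, 45.5 and 45.0 CPM to 78.6, 111 and 153 CPM (log2 1.44, SE 0.221, edgeR adjusted p = 0.00315). Ikzf2 (Helios) rose by 1.96, with 78.8 CPM at 48 h in the experiment 3 mouse against 30.7 and 23.2 CPM in the others. Zeb2, a factor of terminal effector cells, rose by 1.49, Gata3 by 1.09 and Batf3 by 2.49 (from at most 0.14 to at most 0.90 CPM). Klf2 (ENSMUSG00000055148, chromosome 8, 72319033 to 72321656), a factor of quiescence and of exit from tissue, fell from 143, 109 and 239.5 CPM to 55.0, 45.2 and 48.5 CPM (log2 -1.68, SE 0.302, edgeR adjusted p = 0.00771). The groups did not overlap. Factors often used to mark effector or memory fate were not called: Tbx21 (T-bet) had a log2 fold change of 1.08 (SE 0.546), Eomes 0.63 (SE 0.227), Prdm1 (Blimp-1) -0.23 (SE 0.365), Id2 -0.21 (SE 0.163), Irf4 0.03 (SE 0.447) and Tcf7 (TCF-1) -0.50 (SE 0.182). Without the mouse block 2 of the list were called, and with 1 mouse left out 0, 2 and 2 (without experiments 1, 3 and 5).

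Checkpoint and costimulatory receptors changed in both directions, 8 of 26 rising (30.8%) and 2 falling (7.69%), against 2.53% and 1.28% of all tested genes. Tigit, an inhibitory receptor, rose from 13.8, 19.9 and 16.8 CPM to 34.5, 64.7 and 47.3 CPM (log2 1.50, SE 0.239, edgeR adjusted p = 0.0041). The costimulatory receptor genes Tnfrsf4 (OX40) and Tnfrsf18 (GITR) rose by 1.42 and 1.12, and the inhibitory receptor gene Ctla4 by 0.94. Tnfrsf4 went from 25.8, 28.9 and 42.8 CPM to 70.7, 72.3 and 119 CPM. Havcr2 (TIM-3) rose by 2.14 but stayed under 1 CPM in all 6 libraries, and was not called in a fit of these libraries alone (edgeR adjusted p = 0.0655). Cd27, a costimulatory receptor of resting cells, fell by 0.46 and Cd96 by 0.54 (edgeR adjusted p = 0.0261 and 0.0221). Without the mouse block 4 members were called, and with 1 mouse left out 1, 4 and 1 (without experiments 1, 3 and 5).

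Of 30 early genes of T cell receptor signalling 2 rose (6.67%, against 2.53% of all tested genes) and none fell. Nr4a3 rose from 80.4, 87.5 and 66.6 CPM to 114, 292 and 222 CPM (log2 1.35, SE 0.226, edgeR adjusted p = 0.00505), the experiment 1 mouse showing the smallest rise, and its relative Nr4a2 rose by 1.75. Myc, a driver of growth, had 244 ± 29.2 and 347 ± 114 CPM (SD, n = 3; log2 0.48, edgeR adjusted p = 0.149). Of 23 genes of the T cell receptor complex and its proximal signalling none rose and 2 fell (8.7%, against 1.28% of all tested genes). Trbc1 and Trbc2, the constant segments of the receptor beta chain and near-identical in sequence, fell by 0.81 and 0.64. Cd3e, Cd8a and Cd8b1 were lower at 48 h in every mouse but were not called (log2 -0.22, -0.22 and -0.37).

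Of 24 homing and adhesion genes 3 rose (12.5%) and 1 fell (4.17%), against 2.53% and 1.28% of all tested genes. Cd44, the adhesion receptor that marks antigen-experienced cells, rose from 37.5, 44.8 and 40.1 CPM to 78.4, 96.5 and 138 CPM (log2 1.31, SE 0.266, edgeR adjusted p = 0.0146). The chemokine receptor gene Ccr8 rose by 1.66 and stayed low, with means of 0.69 CPM at 24 h and 2.21 CPM at 48 h. Itgae, the integrin CD103 that binds epithelium, fell from 141, 104 and 136 CPM to 87.7, 38.6 and 65.7 CPM (log2 -1.04, SE 0.198, edgeR adjusted p = 0.0105). The lymph node homing gene Ccr7 was not called (log2 -0.10). In the list of quiescence factors of naive cells, 27 tested, Klf4 rose by 1.44 (3.7% of the list). It went from 0.86, 0.82 and 1.28 CPM to 2.13, 2.36 and 3.59 CPM, against a mean of 26.4 CPM in naive KI cells. Klf2 and Dgka (diacylglycerol kinase alpha, -0.88) fell (7.41%), and the median was -0.27. Exons of Dgka overlap those of Pmel, which fell by 1.23.

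Single genes of lipid metabolism were called in KI cells. Of 27 genes of cholesterol synthesis and uptake 2 rose (7.41%, against 2.53% of all tested genes), among them Stard4, a sterol carrier. Stard4 stood at 64.8, 69.6 and 52.3 CPM at 24 h and at 82.8, 103 and 81.2 CPM at 48 h (log2 0.52, SE 0.124, edgeR adjusted p = 0.0317). The synthesis enzyme genes Hmgcs1 and Sqle were not called, with log2 values of 0.25 and 0.33. Of 22 tested fatty acid synthesis genes 1 rose (4.55%), the desaturase gene Scd2, from 186, 260.2 and 120 CPM to 381, 706 and 276 CPM (log2 1.24, SE 0.232, edgeR adjusted p = 0.00945). Fasn, fatty acid synthase, and Acaca, acetyl-CoA carboxylase, were at 328 ± 34.4 and 332 ± 42.1 CPM and at 58.1 ± 9.03 and 63.2 ± 7.49 CPM (SD, n = 3). None of 14 sterol efflux genes was called by edgeR (3 higher and 2 lower at an unadjusted p under 0.05; DESeq2 called 1 higher), Abca1 having a log2 value of -0.55 (edgeR adjusted p = 0.107), and of 19 fatty acid oxidation genes Eci1, an enoyl-CoA isomerase, fell by 0.51. The Eci1 call was lost under RLE scaling (edgeR adjusted p = 0.0586) and without a low-count filter (0.0813).

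Amino acid genes moved singly. Asns, asparagine synthetase, rose from 11.2, 22.2 and 11.7 CPM to 46.7, 57.8 and 79.6 CPM (log2 2.05, SE 0.397, edgeR adjusted p = 0.0113). The arginine transporter gene Slc7a1 rose by 0.62 and Slc16a10, a transporter of aromatic amino acids, fell by 0.76. They were the other called members of 19 in the amino acid list. Its shares were 10.5% higher and 5.26% lower, against 2.53% and 1.28% of all tested genes. Of 31 genes of the unfolded protein and amino acid stress response 3 rose (9.68%). They were Asns, Sesn2 (1.16) and Vldlr (4.37, from at most 0.22 to between 1.36 and 2.82 CPM). The chaperone gene Hspa5 and the stress factor Xbp1 were not called (-0.05 and 0.12). None of 18 serine and one-carbon genes was called by edgeR, while 5 were higher at an unadjusted p under 0.05 and DESeq2 called 3 higher. Psat1 came closest among the enzymes followed, with 180, 228 and 158 CPM and then 275, 265 and 390.2 CPM (log2 0.71, SE 0.188, edgeR adjusted p = 0.0509).

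The mitochondrial and biosynthetic lists held 0 or 1 called members each, where 3.81% of all tested genes were called. None of 56 nuclear genes of oxidative phosphorylation was called, with log2 values between -0.34 and 0.24 and a median of -0.03. None of 12 tested genes of the mitochondrial genome and none of 44 ribosome biogenesis genes was called, the latter lying between -0.24 and 0.27. In these 3 lists edgeR gave 0 members an unadjusted p under 0.05, and DESeq2 called 0. Of 30 genes of mitochondria-ER contacts, the structures that the series title names, Osbpl5, a lipid transfer protein, fell from 27.6, 25.5 and 32.8 CPM to 17.9, 17.6 and 14.3 CPM (log2 -0.79, SE 0.154, edgeR adjusted p = 0.012). None of 19 genes of MHC class I presentation was called by edgeR or DESeq2, and 1 was lower at an unadjusted p under 0.05. Of 49 interferon-stimulated genes Oas2 fell by 1.39 and Oas3 by 0.54 (4.08%, against 1.28% of all tested genes lower). Of 16 tested BCL2 family genes Pmaip1, which encodes the death-promoting protein NOXA, rose by 0.93 (6.25%, against 2.53% higher). The Oas3 call was lost under RLE and library-total scaling and without a low-count filter (edgeR adjusted p = 0.0595, 0.0701 and 0.0596), and the Pmaip1 call under library-total scaling (0.0617).

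Other genes with the smallest p values had various roles. Lgals1, the secreted lectin galectin-1, rose from 44.2, 41.5 and 50.4 CPM to 98.1, 114 and 125 CPM (log2 1.31, SE 0.14, edgeR adjusted p = 0.000949). Stk39, a kinase of ion transport, rose by 1.31 and Pkp4, a plakophilin, by 1.22. Rflnb, a regulator of filamin, fell from 54.2, 53.6 and 95.2 CPM to 27.6, 22.3 and 32.2 CPM (log2 -1.27, SE 0.148, edgeR adjusted p = 0.00115), and As3mt, an arsenic methyltransferase, from 18.8, 18.5 and 20.2 CPM to 7.69, 8.05 and 7.94 CPM (log2 -1.28, SE 0.155, edgeR adjusted p = 0.0012). Aqp3, an aquaporin that also carries glycerol, fell by 1.49, the small nucleolar RNA Snord35b by 1.53, Wfikkn2 by 1.26, the serine protease gene Prss12 by 1.39, the threonine aldolase gene Tha1 by 1.23 and the adhesion receptor gene Jaml by 1.03. In all of these genes the libraries of the 2 times did not overlap, as in 792 of all 807 called genes. Snord35b, Prss12, Tha1 and Jaml have exons over those of another gene.

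**Figure D3:**
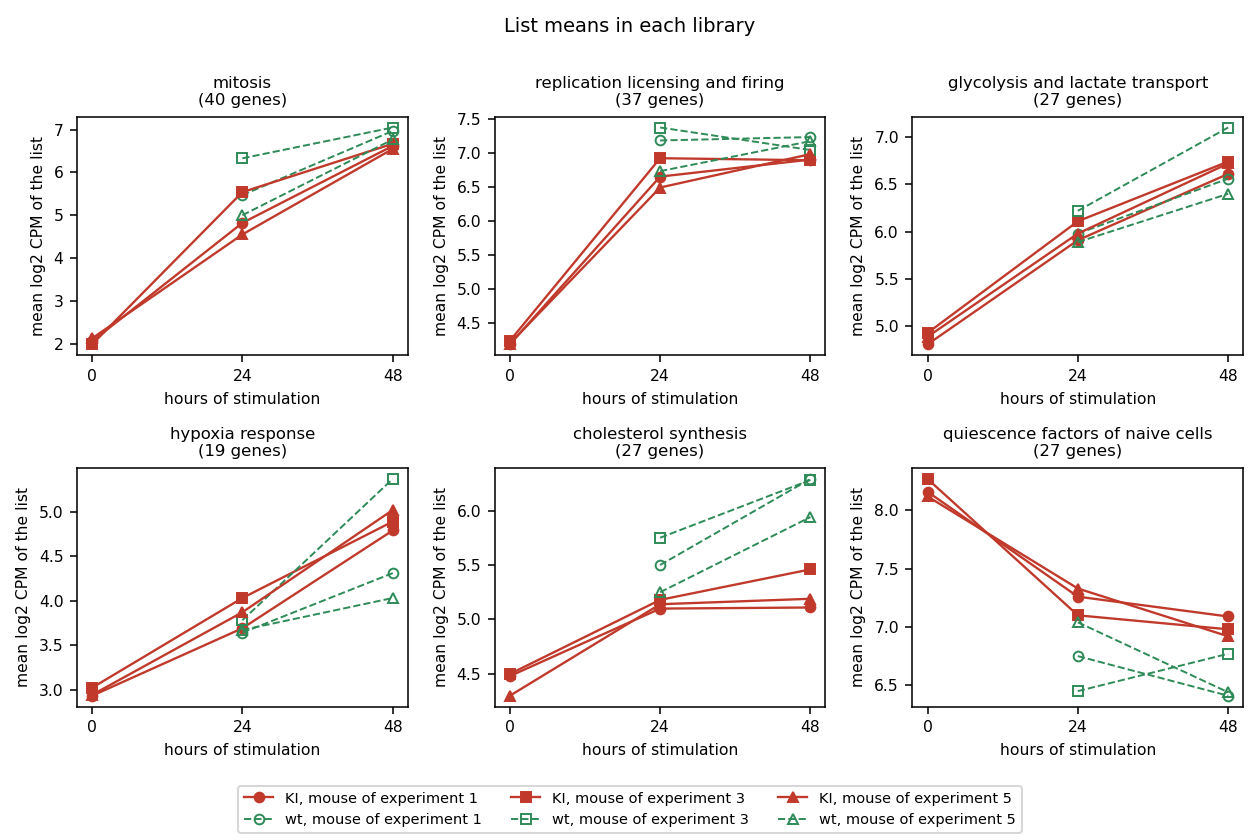
Mean log2 CPM of the tested members of 6 gene lists (y axis, one scale per panel) against hours of stimulation (x axis), with a line for each KI mouse (red, solid) and each wt mouse (green, dashed, 24 h and 48 h only). In KI cells the mitosis list goes from 4.55 to 5.54 at 24 h to 6.55 to 6.67 at 48 h, the replication list is near its 48 h level at 24 h, and in cholesterol synthesis the KI libraries lie at 5.11 to 5.46 at 48 h and the wt libraries at 5.94 to 6.29.

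The same contrast was tested in wt mice, and the difference between the genotypes was tested directly as an interaction in the same fit. In wt cells 1886 genes (8.90%) were called between 24 h and 48 h, 990 higher (4.67%) and 896 lower (4.23%). Without a single wt mouse these were 239 (without experiment 1), 1893 (without experiment 3) and 839 (without experiment 5). The change differed between KI and wt in 2 genes (0.00944%), and 1508 genes had an unadjusted p under 0.05. DESeq2 called 127. Whether a gene was called in wt and not in KI cells is therefore no measure of a difference between the genotypes.

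Of the 2 genes, Mvd encodes mevalonate diphosphate decarboxylase, an enzyme of cholesterol synthesis. In KI cells it stood at 20.1, 20.3 and 23.1 CPM at 24 h and at 16.9, 19.7 and 17.1 CPM at 48 h, and in wt cells at 26.3, 26.3 and 20.1 CPM and then 61.4, 56.8 and 44.7 CPM. The level was higher at 48 h in all 3 wt mice and lower in all 3 KI mice, with log2 fold changes of 1.16 (SE 0.132) and -0.25 (SE 0.132) and a difference of -1.41 (SE 0.186, edgeR adjusted p = 0.0245). The KI change alone was not called (edgeR adjusted p = 0.367). With any 1 KI mouse left out, and without the wt mouse of experiment 1 or 5, no gene was called for the difference. The other gene, the processed pseudogene Gm13237, was not a difference shared by the mice: it stood at 29.8 CPM at 24 h in the KI mouse of experiment 3 and at 48.0 CPM at 48 h in the wt mouse of experiment 1, and at or near 0 in all other libraries of these groups.

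Other cholesterol synthesis genes also had a difference below 0, without passing edgeR's test. In KI cells 21 of 27 members had a log2 value above 0, and Mvd, at -0.25, was not called. In 27 of 27 members the KI change was below the wt change, the median difference being -0.47 against 0.01 over all tested genes, and 1 member was called by edgeR (6 by DESeq2). Of this list 17 rose in wt cells, where 4.67% of all tested genes were called higher, and 2 in KI cells, where 2.53% were. Fdps, which makes farnesyl diphosphate, stood at 23.4, 24.4 and 26.2 CPM and then 21.1, 29.5 and 24.1 CPM in KI cells and at 35.0, 47.0 and 25.0 CPM and then 82.4, 85.5 and 68.1 CPM in wt cells (difference -1.16, edgeR adjusted p = 0.16; Fdps was chosen after its values were seen). Msmo1, a sterol methyl oxidase, had log2 fold changes of 0.21 in KI and 1.34 in wt cells (difference -1.14, SE 0.202, edgeR adjusted p = 0.1). The genes of a pathway are not independent of each other, and the count of 27 is a description. In fatty acid synthesis 19 of 22 differences were below 0. At an unadjusted edgeR p under 0.05, 13 of 27 cholesterol synthesis genes differed, against 1508 of 21183 tested genes. Other lists held such genes too, among them 18 of 49 interferon-stimulated genes, 8 of 25 cytokine receptors and 7 of 18 STAT and SOCS genes. Of the interferon-stimulated genes DESeq2 called 4, and 29 differences were below 0 and 20 above. In that list 10 rose and 2 fell in wt cells, against 4.67% and 4.23% of all tested genes. In KI cells 0 rose and 2 fell, against 2.53% and 1.28%. Beside this, the 10 B cell markers had a median difference of 0.71 with 10 of 10 above 0, the 6 gamma delta T markers one of 1.04 with 6 of 6 above 0, and the other 8 marker lists medians between -0.25 and 0.51. The gamma delta T markers were low, with a mean log2 CPM between -2.22 and -0.07 in these libraries. The part of the cells behind these marker lists in the result was not tested.

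**Figure D4:**
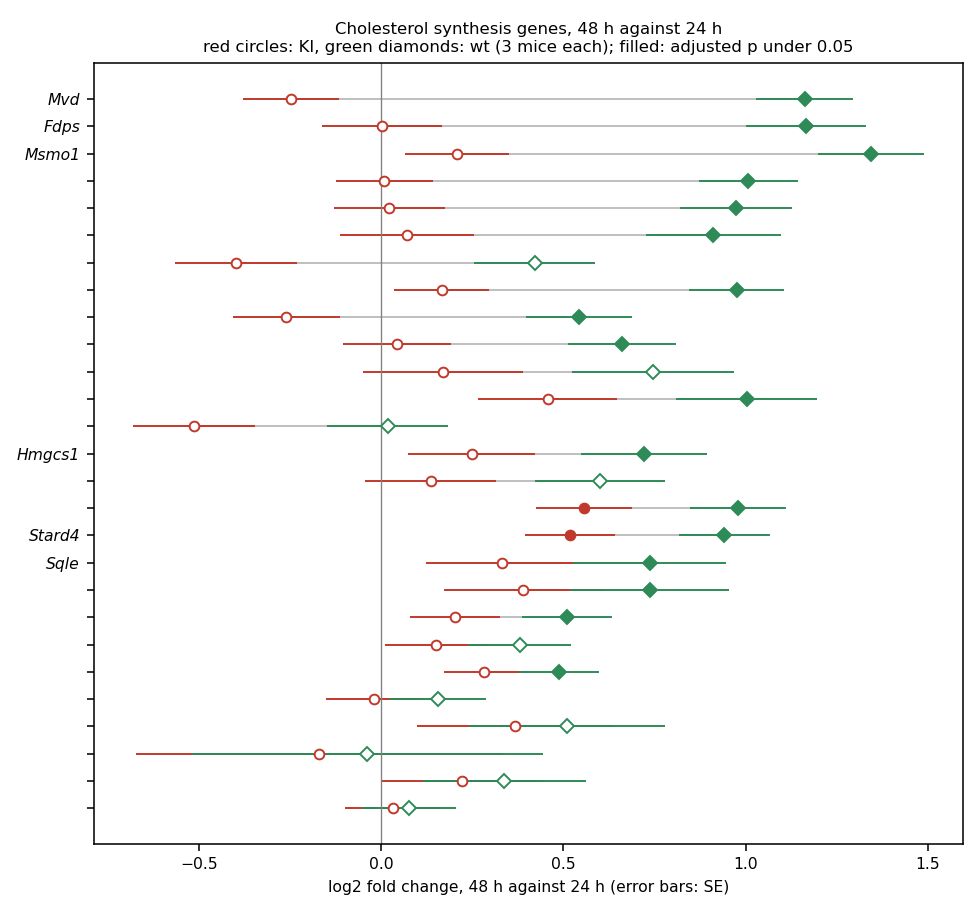
Log2 fold change of 48 h against 24 h (x axis, error bars SE, 3 mice each) of 27 cholesterol synthesis genes (rows, ordered by the difference, the 6 named in the text labelled) in KI cells (red circles) and wt cells (green diamonds), filled where called. Every circle lies left of its diamond, and Mvd, in the top row, has the largest distance. Filled are 2 circles and 17 diamonds, where 2.53% (KI) and 4.67% (wt) of all tested genes were called higher.

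In the mitosis, glycolysis and hypoxia lists edgeR called no difference from wt, while 1, 4 and 0 members had an unadjusted p under 0.05 and DESeq2 called 1, 1 and 0. For mitosis the median difference was 0.39, with 36 of 40 members above 0 and no member called. In wt cells 31 members rose, where 4.67% of all tested genes were called higher. At 24 h the mean log2 CPM of the mitosis list was 4.82, 5.54 and 4.55 in KI and 5.47, 6.33 and 5.00 in wt libraries. Glycolysis had a median difference of 0.04 (15 of 27 above 0) and hypoxia response one of 0.04 (11 of 19). In the hypoxia list the wt mouse of experiment 3 stood at 5.37 at 48 h and the other wt mice at 4.31 and 4.03, while the KI mice stood between 4.79 and 5.02. For Gzmb the difference was -0.42 (SE 0.664, edgeR adjusted p = 0.962), with 48 h levels of 2077, 1950 and 1784 CPM in wt cells. Levels of Gzmb at 48 h did not overlap between the genotypes, which is a comparison of levels and not of changes and was not tested here.

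Genes next to Mvd in the order of p for the difference were not called. Cxcr6, a chemokine receptor of tissue-resident T cells, stood at 65.1, 51.3 and 87.8 CPM at 24 h and at 56.4, 50.7 and 57.5 CPM at 48 h in KI cells, and at 50.2, 33.0 and 56.0 CPM and then 9.46, 12.7 and 14.9 CPM in wt cells. It fell in wt (log2 -1.90) and had a value of -0.27 in KI cells, the difference being 1.62 (SE 0.253, edgeR adjusted p = 0.0885). Lgals1 rose in both, by 1.31 in KI and 2.39 in wt cells (difference -1.08, SE 0.195, edgeR adjusted p = 0.108). The remaining genes of the rule had higher values in KI than in wt for Atxn1, Lrrk2, Cybb, Ppp1r3e, Zfhx2, Cacng4 and Brpf3, and lower ones for Oas3, Mylpf, Sh2d1a, Hemk1 and Zfp983. Oas3 had log2 values of -0.54 in KI and 0.65 in wt cells, and Sh2d1a, the adaptor SAP, of 0.26 and 1.96.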

How the data were processed

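RNA was sequenced from 22 libraries of mouse CD8+ T cells, made per the labels from 100 ng of RNA (RIN 7.7 to 9.4) with a stranded poly(A) kit and read as 75 nt paired ends. The submitters' processing notes name bcl2fastq 2.20.0, TopHat2 2.1.0, Bowtie2 2.2.5, SAMtools 0.1.19, featureCounts and DESeq2 1.6.3, and the builds GRCm38 and mm10. The annotation release and the strand setting of the counting are not given in the sources used here, so reads of overlapping genes on opposite strands may not have been told apart. Of 148 named genes 43 have an exon over an exon of another gene.

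The deposited count table holds whole-number counts of 46603 Ensembl genes, of which 21183 passed filterByExpr (minimum count 10, total 15). The deposited FPKM table, made by the authors, was used only to compare levels between genes. It equals counts divided by 1 term per gene and 1 per library (largest relative deviation 6.2e-15 over 12661 genes). Counts were fitted with edgeR 4.0.16 in R 4.3.3 (TMM scaling, quasi-likelihood F test) over all 22 libraries, with 8 mouse terms and the effects of time in each genotype (9 residual degrees of freedom). P-values were adjusted by the Benjamini-Hochberg method over all tested genes. SE is that of the log2 fold change, and ± is the SD. List means use log2 CPM with a prior count of 2.

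Libraries of 1 mouse are paired by the labels, and their deviations from the group mean correlated across genes with r = 0.181, 0.142 and 0.312 in KI and 0.201, 0.129 and 0.356 in wt mice. The tables held 0 columns from samples outside the series. Named genes were the 12 called genes in each direction with the smallest p, at least a 2-fold change, the same direction in all mice and a mean of at least 5 CPM. To these were added up to 5 called members per direction and fixed members of each of 29 gene lists, the 8 genes per direction with the smallest p for the KI minus wt difference, and Tcaim. The members and lists were chosen with earlier results of these data known. Alternatives changed the block, the libraries fitted, the scaling, the filter, the tool (DESeq2 1.42.0) and the mice, and the fit without libraries labelled KO and the list counts under all of these were chosen after seeing the data. Some members of the homing and cholesterol lists enter the counts but are not reported here by name.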

Additional observations from a re-analysis of the deposited data

Results flagged for a closer look

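The change from 24 h to 48 h differed between KI and wt mice in 2 genes by the interaction test of edgeR's quasi-likelihood fit. For Mvd the KI minus wt difference of the log2 fold change was -1.41 (edgeR adjusted p = 0.0245), from -0.25 in KI and 1.16 in wt cells. The KI change alone was not called (edgeR adjusted p = 0.367), and in the experiment 3 mouse it was -0.04. The value was below 0 in 3 of 3 KI mice and above 0 in 3 of 3 wt mice. These are the libraries from which the gene was picked, so the signs describe the result and are no further test. For Gm13237, a processed pseudogene, the difference was -23.7 (edgeR adjusted p = 0.0245). It rested on 29.8 CPM in 1 KI library at 24 h and 48.0 CPM in 1 wt library at 48 h, while the KI and wt libraries of the same mice at the other times held at or near 0 CPM.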

How the results depend on the processing

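Of 93 named genes called between 24 h and 48 h in KI cells, all 93 kept their direction under every alternative run and 12 stayed called under each. Without the replicate block 31 of them were not called. For genes called in KI cells (807), the fit of the groups compared alone with the replicate block gave 2301, that of KI and wt libraries only 1492 and DESeq2 1586, while leaving out 1 mouse gave 22 to 249. Without the replicate block there were 567. For wt (1886) the values were 787, 3028 and 3022, and 239 to 1893 with 1 mouse left out. For the difference (2) they were 0, 19 and 127, 1 without the replicate block, 8 without a low-count filter, 1 at a minimum count of 50, and 0 to 5 with 1 mouse left out. Among lists, counts with 1 mouse left out were 0 to 3 for cytotoxic genes (5), 0 to 1 for cytokine receptors (5), 0 to 2 for fate factors (7), 1 to 4 for checkpoint receptors (10), 2 to 8 for glycolysis (14), 3 to 31 for mitosis (37) and 1 to 7 for hypoxia response (9). Without the replicate block they were 3 for cytokine receptors, 2 for fate factors and 4 for checkpoint receptors. With the groups compared alone they were 14, 17 and, for hypoxia response, 14. With KI and wt libraries only they were 9 and 12, and DESeq2 called 11 cytokine receptors. Tcaim ran from -0.0221 to 0.288 with 1 mouse left out. Among genes that were not called, the sign turned for Irf4 (-0.25 to 0.322), Fasn (-0.0254 and -0.0137, highest 0.0714), Isg15 (-0.337 to 0.0823), Mcm2 (0.0312 by RLE scaling and by DESeq2, 0.00746 at a minimum count of 50, 0.0461 and 0.0873, lowest -0.162) and Bcl2l11 (0.00374 without the replicate block, 0.0295 by RLE scaling and by DESeq2, 0.00551 at a minimum count of 50, 0.0647 and 0.123, lowest -0.221), the other values being those with 1 mouse left out. Leaving out a mouse leaves 2 pairs in KI cells. For the other changes the cause was not tested.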

Other observations

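Outside the lists, some genes of secreted and surface proteins and of iron uptake also rose in KI cells between 24 h and 48 h. They were chosen after their values were seen. Penk, the precursor of enkephalin peptides, stood at 0.33, 0.17 and 0.78 CPM at 24 h and at 3.95, 4.22 and 10.8 CPM at 48 h in experiments 1, 3 and 5 (log2 3.93, SE 0.524, edgeR adjusted p = 0.00151). Lif, a cytokine of the IL-6 family, rose from 1.16, 3.53 and 1.39 CPM to 8.01, 9.81 and 17.7 CPM (log2 2.64, SE 0.539, edgeR adjusted p = 0.015). Tnfsf4, the ligand of OX40, rose from 3.44, 4.15 and 3.29 CPM to 15.6, 25.5 and 22.8 CPM (log2 2.56, SE 0.381, edgeR adjusted p = 0.00267), beside the rise of its receptor gene Tnfrsf4. None of these overlapped between the times.

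Vim, the intermediate filament vimentin, rose from 37.7, 47.0 and 27.9 CPM to 179, 135 and 194 CPM (log2 2.18, SE 0.384, edgeR adjusted p = 0.00708). Tfrc, the transferrin receptor through which dividing cells take up iron, rose from 243, 321 and 183 CPM to 538, 511 and 542 CPM (log2 1.12, SE 0.212, edgeR adjusted p = 0.0102). Cirbp, an RNA-binding protein induced by cold, fell from 49.5, 44.2 and 62.0 CPM to 29.4, 25.7 and 25.4 CPM (log2 -0.95, SE 0.16, edgeR adjusted p = 0.00531). Igha, the constant region of the IgA heavy chain and thus a gene of plasma cells, fell from 4.001, 4.97 and 18.6 CPM to 0.15, 0.07 and 0.36 CPM (log2 -5.59, SE 0.924, edgeR adjusted p = 0.00489), while the 10 B cell markers gave no call in either direction.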
